A study of Rattus norvegicus with 6 samples.

Results

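The Sox genes encode transcription factors that bind DNA through a domain related to that of the testis factor SRY, the HMG box. In all, 9 members were described here: Sox11, Sox10, Sox2, Sox5, Sox6, Sox8, Sox9, Sox12 and Sox13. They were selected by name from the table of gene counts, and the family was chosen from the opposite movement of Sox11 and Sox10 between the operated groups. All 9 were found among the 25689 genes of the table, and all 9 were among the 14919 genes that passed the filter on low counts. The table also held 6 other Sox genes, of which 3 passed.

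RNA came from neurons dissociated from dorsal root ganglia (DRGs), the sensory ganglia beside the spinal cord, at levels L1-L2 of wild type spontaneously hypertensive rats (SHRs), a strain whose blood pressure is high without treatment. In the PRATA group (3 samples) the perirenal adipose tissue had been ablated on both sides, the sham group (3 samples) had a sham operation, and ganglia were taken 4 weeks later. The labels and methods do not give the number of rats per sample, and each sample is taken as a separate rat. The labels give an age of 6 to 8 weeks, while the methods give 12 weeks at purchase. Neurons were separated after 5 h of culture by how fast cells attach to the dish, so glia could remain, and in such bulk RNA fewer cells of a type and less RNA per cell cannot be told apart.

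The family is divided into subgroups by sequence. Sox11 and Sox12 belong to SoxC, whose members act in newly formed neurons, and Sox11 is also known for its induction in sensory neurons with a damaged axon. Sox10, Sox9 and Sox8 form SoxE. Sox10 is kept throughout life in Schwann cells and satellite glial cells, where it drives myelin and other glial genes, while Sox9 acts early in gliogenesis and in cartilage and connective tissue. Sox2, of SoxB1, maintains progenitors and is found in satellite glia and in immature Schwann cells. Sox5, Sox6 and Sox13 are SoxD proteins, which lack an activation domain of their own and modulate other factors, SoxE proteins among them. SoxF genes (Sox7, Sox17 and Sox18) are active mainly in vascular endothelium.

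RefSeq promoters (build GRCr8) were matched by symbol for 5 of the 9 genes, Sox11, Sox2, Sox6, Sox12 and Sox13, and not for Sox10, Sox5, Sox8 and Sox9. The 250 bases before the transcription start of Sox11 and of Sox12 are shown because these SoxC genes were both higher in every PRATA sample. Capitals mark CCAAT and GGGCGG on either strand (ATTGG and CCGCCC on the other), the letters bound by the general factors NF-Y and Sp1. Sox11 lies on the minus strand of chromosome 6 (chr6:49738795-49739044), and Sox12 on the minus strand of chromosome 3 (chr3:161320820-161321069). Both stretches are 5′ flanking sequence.
Sox11: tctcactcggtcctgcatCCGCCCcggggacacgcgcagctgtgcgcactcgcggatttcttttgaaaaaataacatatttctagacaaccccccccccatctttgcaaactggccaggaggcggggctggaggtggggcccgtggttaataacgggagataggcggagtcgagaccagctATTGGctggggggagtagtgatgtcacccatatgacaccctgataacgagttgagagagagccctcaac
Sox12: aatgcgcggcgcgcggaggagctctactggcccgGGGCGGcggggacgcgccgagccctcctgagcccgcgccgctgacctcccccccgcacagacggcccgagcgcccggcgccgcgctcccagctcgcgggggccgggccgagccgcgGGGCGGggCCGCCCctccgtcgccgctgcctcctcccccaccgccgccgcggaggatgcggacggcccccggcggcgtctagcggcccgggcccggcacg
The Sox11 stretch held 1 CCAAT and 1 GGGCGG, and the Sox12 stretch 3 GGGCGG and no CCAAT. Among 27457 RefSeq promoters of this length, 34.3% held CCAAT and 32.4% GGGCGG. The G+C content was 84.4% for Sox12, above that of nearly all promoters (percentile 99.8), and 56.8% for Sox11, against a median of 52.0%. The core letters of Sox binding, ACAAT and ACAAAG, searched on both strands, were in neither stretch. Sox6 held ACAAT at 2 places and ACAAAG at 1, where 29.6% and 16.0% of promoters held them. Matches of these short motifs may share bases, and a match describes letters only.

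Levels are given as CPM (counts scaled to a fixed library total), corrected to a common library composition by edgeR's TMM method. Since no transcript lengths were used, levels were compared mainly between samples. Between genes, CPM served only to name abundant genes of lists, to sum lists and to set a least level in the search for like patterns. There it is not corrected for gene length. Total counts lay between 5892967 and 15226952 per sample, and 3 counts corresponded to at most 0.468 CPM. PRATA replicate 3 and sham replicate 1 stood apart from the other 4 samples in their 7SL RNA. Of the reads on both main copies, 0.498% to 1.10% fell on the copy ENSRNOG00000058083 in that pair and 50.7% to 52.7% in the others. Each log2 fold change of a member is therefore also given without that pair, as the 4-sample value. Fold changes are log2 differences of PRATA minus sham from edgeR's quasi-likelihood fit, each with its standard error (SE). For the 9 members they are a description, without a test, since this contrast chose the family.

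The SoxC genes analysed here, Sox11 and Sox12, were both higher in every PRATA sample than in any sham sample. Sox11 (ENSRNOG00000030034) was at 28.0, 33.9 and 21.6 CPM in PRATA replicates 1, 2 and 3 and at 9.81, 10.8 and 9.07 CPM in sham replicates 1, 2 and 3. The lowest PRATA sample was thus 2.0 times the highest sham sample, and the sham samples were the tightest of any member, with an SD of 8.63% of their mean. The group means were 27.8 ± 6.18 CPM after PRATA and 9.88 ± 0.853 CPM after sham (SD, n = 3 each), a log2 fold change of 1.5 (SE 0.22), which was 1.64 (SE 0.28) in the 4 samples.
Sox12 (ENSRNOG00000007514) was at 19.1, 22.2 and 15.8 CPM after PRATA and 9.47, 8.90 and 12.3 CPM after sham. PRATA replicate 3 was the lowest of its group for both SoxC genes, and replicate 2 the highest. The means of Sox12 were 19.1 ± 3.21 and 10.2 ± 1.81 CPM (SD, n = 3 each), a log2 fold change of 0.90 (SE 0.23) and a 4-sample value of 0.95 (SE 0.30). Sox11 and Sox12 are genes without introns, so splicing could not separate their reads from genomic DNA. The part of such DNA was not tested, and the RNA had been treated with DNase.

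**Figure D1:**
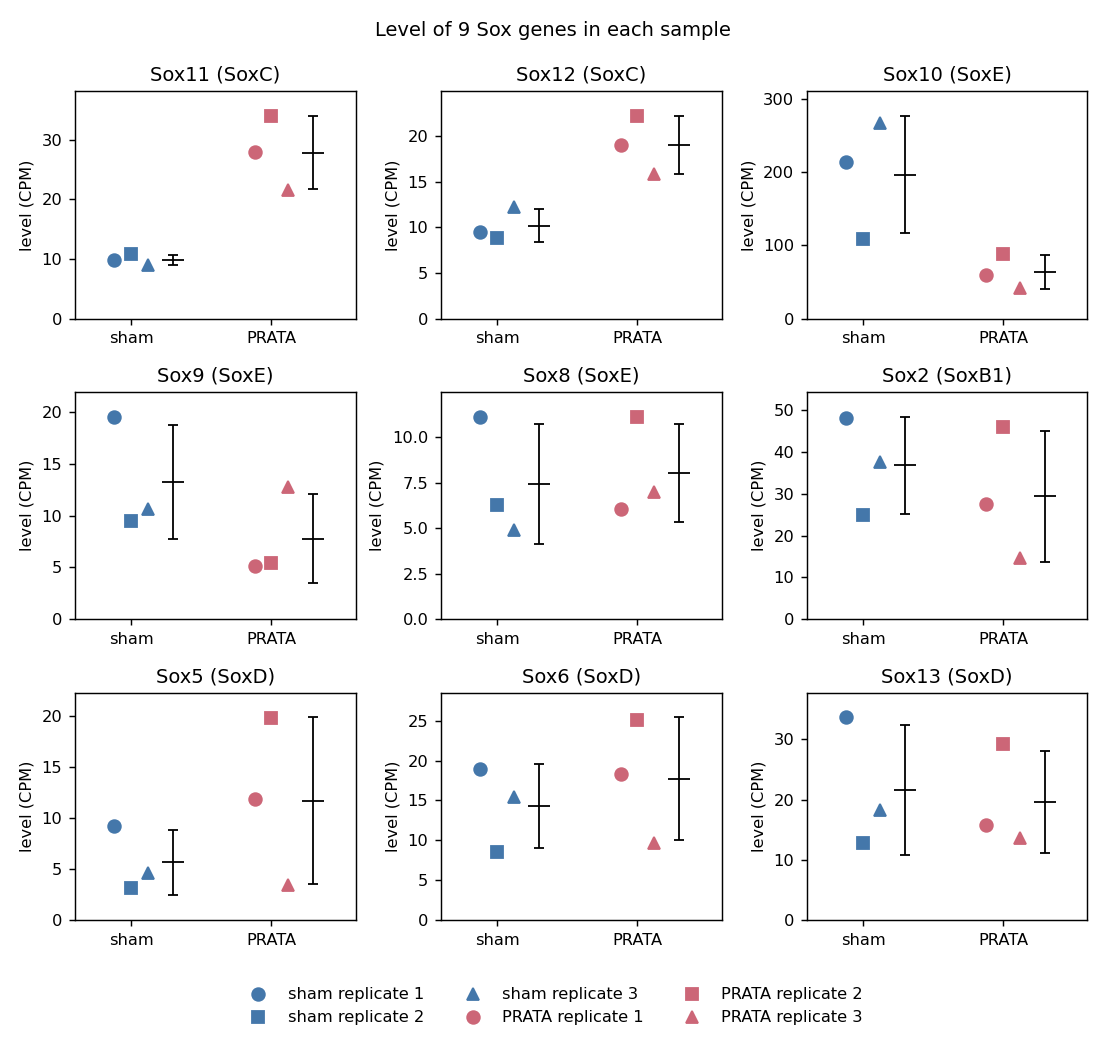
Levels of the 9 Sox genes in CPM (linear axes from 0) in each sham (blue) and PRATA (red) sample, with the mean and SD of each group in black (n = 3). Sox11 and Sox12 lie higher and Sox10 lower in all PRATA samples than in all sham samples, while the groups of the other 6 genes overlap.

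Of the SoxE genes, Sox10 was lower in every PRATA sample, Sox9 was lower in the mean with overlap, and Sox8 showed nearly equal means. Sox10 (ENSRNOG00000011305) was at 59.9, 88.4 and 42 CPM after PRATA and at 213.8, 109.4 and 267.4 CPM after sham. Sham replicate 2, the library with the fewest reads, was the lowest of the sham samples and stood 1.24 times above the highest PRATA sample. The means were 63.4 ± 23.4 and 196.9 ± 80.3 CPM (SD, n = 3 each), which is 3.10 times higher after sham, with a log2 fold change of -1.63 (SE 0.38) and a 4-sample value of -1.36 (SE 0.43).
Sox9 (ENSRNOG00000002607) was at 5.16, 5.42 and 12.7 CPM after PRATA and 19.6, 9.52 and 10.7 CPM after sham. The highest values of either group were those of PRATA replicate 3 and sham replicate 1, the pair that stood apart. The log2 fold change was -0.77 (SE 0.43) with this pair and -0.94 (SE 0.32) without it.
Sox8 (ENSRNOG00000018841) was at 6.07, 11.1 and 6.96 CPM after PRATA and 11.1, 6.24 and 4.91 CPM after sham. Its log2 fold change was 0.11 (SE 0.38), and its sign depended on the samples, with 0.64 (SE 0.40) in the 4 samples, -0.19 without PRATA replicate 2 and -0.12 without sham replicate 3.

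Sox2 and the SoxD genes overlapped between the groups, and their means differed by less than 2.07 times, the ratio of Sox5. Sox2 (ENSRNOG00000012199) was at 27.6, 45.8 and 14.7 CPM after PRATA and 48.0, 24.8 and 37.5 CPM after sham, a log2 fold change of -0.33 (SE 0.40). PRATA replicate 2 was close to the highest sham sample, and the 4-sample value had the other sign, 0.23 (SE 0.34). Sox2 lies within the long non-coding gene Sox2-ot, whose reads the counting could have shared.
Sox5 (ENSRNOG00000027869) was at 11.9, 19.8 and 3.40 CPM after PRATA and 9.19, 3.12 and 4.63 CPM after sham. This was the widest spread of the 9 genes after PRATA, with an SD of 70.1% of the mean, since PRATA replicate 3 lay within the sham range. The log2 fold change was 1.02 (SE 0.62), and 2.0 (SE 0.39) in the 4 samples, where PRATA and sham no longer overlap.
Sox6 (ENSRNOG00000020514) was at 18.3, 25.1 and 9.73 CPM after PRATA and 18.9, 8.58 and 15.4 CPM after sham, with a log2 fold change of 0.30 (SE 0.39) and a 4-sample value of 0.83 (SE 0.36). Without PRATA replicate 2 it was -0.04.
Sox13 (ENSRNOG00000028353) was at 15.7, 29.2 and 13.6 CPM after PRATA and 33.6, 12.8 and 18.3 CPM after sham, with a log2 fold change of -0.15 (SE 0.41) and a 4-sample value of 0.52 (SE 0.37). It was also above 0 without PRATA replicate 3 (0.05) or without sham replicate 1 (0.31). For Sox2, Sox6, Sox8 and Sox13 the SE was larger than the difference.

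In all, the groups did not overlap for 2 members in the upward direction (11.6% of all genes tested) and for 1 in the downward direction (11.2% of all genes tested), and nothing is read from these counts because the contrast chose the family. The median log2 fold change of the 9 genes was 0.11, against 0.02 over all genes tested. On the scale of all genes, the fold change of Sox11 was at percentile 99.6, of Sox5 at 98.2, of Sox12 at 97.1, of Sox9 at 8.21 and of Sox10 at 1.27. Within a sample, 100 Sox10 reads went with 46.8, 38.4 and 51.4 Sox11 reads in PRATA replicates 1, 2 and 3 and with 4.59, 9.84 and 3.39 in sham replicates 1, 2 and 3. These read ratios are not corrected for gene length, and they serve only to compare samples.

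**Figure D2:**
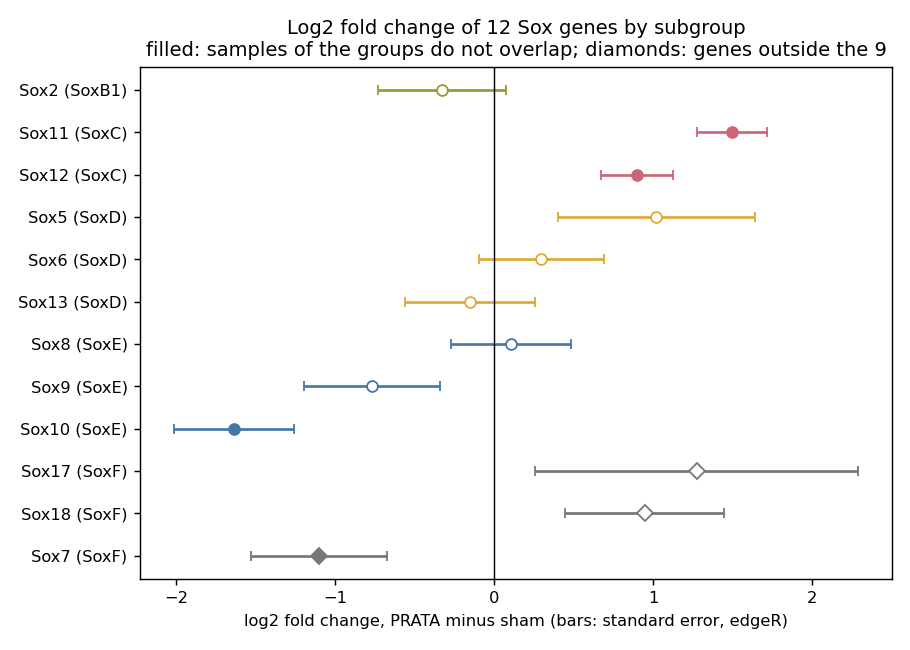
Log2 fold change (PRATA minus sham, points) with its standard error (bars) for the 12 Sox genes tested, ordered by subgroup; filled points mark genes whose groups do not overlap. The SoxC genes Sox11 and Sox12 lie right of 0 at 1.5 and 0.90, Sox10 lies at -1.63, and the 3 SoxF genes (diamonds) lie on both sides of 0.

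The other Sox genes are not members of the described set, and they could be tested. In edgeR's quasi-likelihood fit, with p-values adjusted by the Benjamini-Hochberg method across the whole table, 0 of the 3 tested passed an adjusted p under 0.05, as was true of every gene tested (0%). At this threshold DESeq2 called 728 and limma voom 1173 of the 14919 genes. DESeq2 gave an adjusted p for Sox7 (0.119) and none for Sox17 and Sox18, so it could not call these. Limma voom called 0 of the 3. Without sham replicate 2, the shallowest library, edgeR called 721 genes. At an unadjusted p under 0.05, which edgeR gave for 8.19% of all genes tested upward and 10.1% downward, 0 of the 3 were higher and 1 lower after PRATA. That gene was Sox7, at 1.81, 4.46 and 5.46 CPM after PRATA and 9.26, 10.8 and 5.67 CPM after sham, a log2 fold change of -1.10 (SE 0.43, adjusted p = 0.236). The lowest sham sample was 1.04 times the highest PRATA sample, and the unadjusted p was above 0.05 without PRATA replicate 1 or 2 or sham replicate 1 or 2.
The other SoxF genes lay in the opposite direction with overlapping groups, Sox18 at 0.94 (SE 0.50, adjusted p = 0.343, edgeR) and Sox17 at 1.27 (SE 1.02, adjusted p = 0.526, edgeR). Without sham replicate 2 both had an unadjusted p under 0.05, with Sox17 at 2.70 and Sox18 at 1.46, and limma voom gave 3.29 and 1.24, again with an unadjusted p under 0.05. Without sham replicate 3 Sox17 was at 0.64, and without PRATA replicate 2 at 0.83. Sox17 had 0 counts in sham replicate 3, which allows a level of up to 0.283 CPM. Sox14, Sox15 and Sox30 had between 7 and 25 counts over all samples and were not tested. Sox1, Sox3, Sox4 and Sox21 were not analysed here. The endothelial marker list, of which 11 of 12 genes were tested, had a summed level of 94.5 to 203.6 CPM after PRATA and 45.7 to 239.6 CPM after sham, and the part of endothelial cells in the SoxF values was not tested.

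Lists of genes tied to the subgroups were written from general knowledge. At an unadjusted p under 0.05, 8.19% of all genes tested were higher and 10.1% lower. With a sample left out, the count over all genes moved too. From 2734 of 14919 in either direction, it became 1406 of 15774 without PRATA replicate 1, 2371 of 15408 without replicate 2 and 2000 of 15323 without replicate 3. Without sham replicates 1, 2 and 3 it was 2364 of 15360, 4254 of 15438 and 1471 of 15758. Of the SoxC list, genes named as targets of Sox11 or as companions of axon growth, 13 of 15 were tested. At an unadjusted p under 0.05, 7 were higher and 0 lower after PRATA, with a median log2 fold change of 0.54. The count was 4 without PRATA replicate 1 and 4 without sham replicate 3. DESeq2 called 4 of the 13 higher at an adjusted p under 0.05 and limma voom 6, edgeR 0. Over all 14919 genes tested, the counts in either direction were 728 with DESeq2, 1173 with limma voom and 0 with edgeR. Bdnf, a neurotrophin, was at 45.5 ± 6.46 and 23.9 ± 1.26 CPM (SD, n = 3 each), a log2 fold change of 0.93 (SE 0.18, adjusted p = 0.156, edgeR). The others with the smallest p were Klf7, a growth-promoting factor (0.61), Tubb3, the neuronal tubulin (0.81), the RNA-binding protein gene Elavl3 (0.66), the dendrite gene Map2 (0.67) and Gap43, of the growth cone (0.77). Among genes of this list that did not pass, Dcx was at 0.32 (SE 0.31) and Marcksl1 at -0.72 (SE 0.43), and the lowest was Neurod1 at -1.99 (SE 0.90). Sprr1a, at 0.387, 3.11 and 0.0791 CPM after PRATA and 0.0691, 0.468 and 0 CPM after sham, was not tested, and PRATA replicate 2 alone stood out.
A list of 24 sensory neuron markers, which shares Tubb3 and Elavl4 with the SoxC list, lay in the same direction, with a median of 0.47, 6 genes higher and 1 lower at an unadjusted p under 0.05. Of all genes tested, 8.19% were higher and 10.1% lower. The count of higher markers was 12 without PRATA replicate 2 and 15 without sham replicate 2. In these fits 2371 of 15408 and 4254 of 15438 genes passed in either direction, against 2734 of 14919 with all samples. Its summed level was 16690 to 24530 CPM after PRATA and 11920 to 17650 CPM after sham, with no marker at 0 in any sample. The part of neuron content in the Sox11 and Sox12 values was not tested.
Of 16 transcription factors of neuronal injury and growth, all tested, 5 were higher and 1 lower at an unadjusted p under 0.05, with a median of 0.57. The shares of all genes tested were 8.19% higher and 10.1% lower. The count of higher genes was 3 without PRATA replicate 2 or sham replicate 3 and 9 without sham replicate 1. Klf7, Mycn (0.93), Atf3 (1.43), Smad1 (0.53) and Jun (0.89) were the higher genes, and Myc (-0.80) the lower. Klf7 is shared with the SoxC list and was counted among the higher genes there too. Atf3 and Jun, the factors best known beside Sox11 after axon damage, overlapped between the groups. The smallest adjusted p of this list was 0.167 (edgeR, Klf7), and DESeq2 and limma voom each called 2 of the 16 genes at an adjusted p under 0.05, all upward. Of all 14919 genes tested, they called 728 and 1173 in either direction.

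Genes of the SoxE list lay on both sides of 0, 14 above and 14 below. The list holds glial genes named as Sox10 targets or partners, and 28 of its 32 genes were tested. At an unadjusted p under 0.05, 4 were higher and 2 lower, with a median log2 fold change of 0.02. Of all genes tested, 8.19% were higher and 10.1% lower at this threshold, so the genes named below are a description. The count of higher genes was 8 without PRATA replicate 3 or sham replicate 1 and 2 without PRATA replicate 2, and that of lower genes was 5 without PRATA replicate 2 and 4 without sham replicate 2. The lower genes were Tfap2a, a neural crest factor, with -1.09 (SE 0.19, adjusted p = 0.156, edgeR), and Postn, a matrix protein gene, with -1.78 (SE 0.42, adjusted p = 0.156, edgeR). The higher genes were Ncmap (2.44, SE 0.67), Prx (1.39, SE 0.43) and Cnp (0.76, SE 0.28), all of the myelin sheath, and Ngfr (0.75, SE 0.23), which sensory neurons also express. DESeq2 and limma voom each called 2 higher and 2 lower at an adjusted p under 0.05, edgeR 0. Over all 14919 genes tested, DESeq2 called 728 and limma voom 1173 in either direction, edgeR 0. Among genes of this list that did not pass, Mbp, of compact myelin, was at 0.69 (SE 0.33) and Egr2, a factor of myelinating Schwann cells, at 0.05 (SE 0.50).
The glial marker lists were not independent of the SoxE list, which holds 12 of the 16 Schwann cell markers. Of these 16, 5 were higher and 0 lower at an unadjusted p under 0.05, 4 of the 5 being the higher genes of the SoxE list, with a median of 0.61 and a summed level of 2621 to 3303 CPM after PRATA and 1874 to 2245 CPM after sham. Without Ngfr and L1cam, which neurons also express, the sum was 1266 to 2168 CPM after PRATA and 1132 to 1492 CPM after sham, with overlap, a choice made after the values were seen. Of all genes tested, 8.19% were higher and 10.1% lower with all 6 samples. The count of higher Schwann cell markers was 2 without PRATA replicate 2, 3 without sham replicate 3 and 8 without sham replicate 1. Of 14 satellite glia markers, 1 was higher (Lgals3bp) and 1 lower (Bcan), with a median of -0.40 and summed levels of 4364 to 7617 and 5345 to 9491 CPM, led by Apoe. The count of lower genes was 6 without PRATA replicate 2, 3 without sham replicate 2 and 0 without any of the other 4 samples. The median of the satellite glia markers was -0.90 without PRATA replicate 2, -0.61 without sham replicate 2 and -0.24, -0.22, -0.05 and -0.28 without PRATA replicate 1, PRATA replicate 3, sham replicate 1 and sham replicate 3, and it was 0.115 in the 4 samples. No marker of either list was at 0 in any sample. The part of glial content in the Sox10 values was not tested.
The cartilage list of SoxE and SoxD targets, with 12 of 16 genes tested, had 0 genes at an unadjusted p under 0.05 in either direction and a median of -0.25. DESeq2 and limma voom called 0 of them at an adjusted p under 0.05. Its most abundant genes were Cnmd at -0.63 (SE 0.34) and Col9a3 at -0.09 (SE 0.43).

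**Figure D3:**
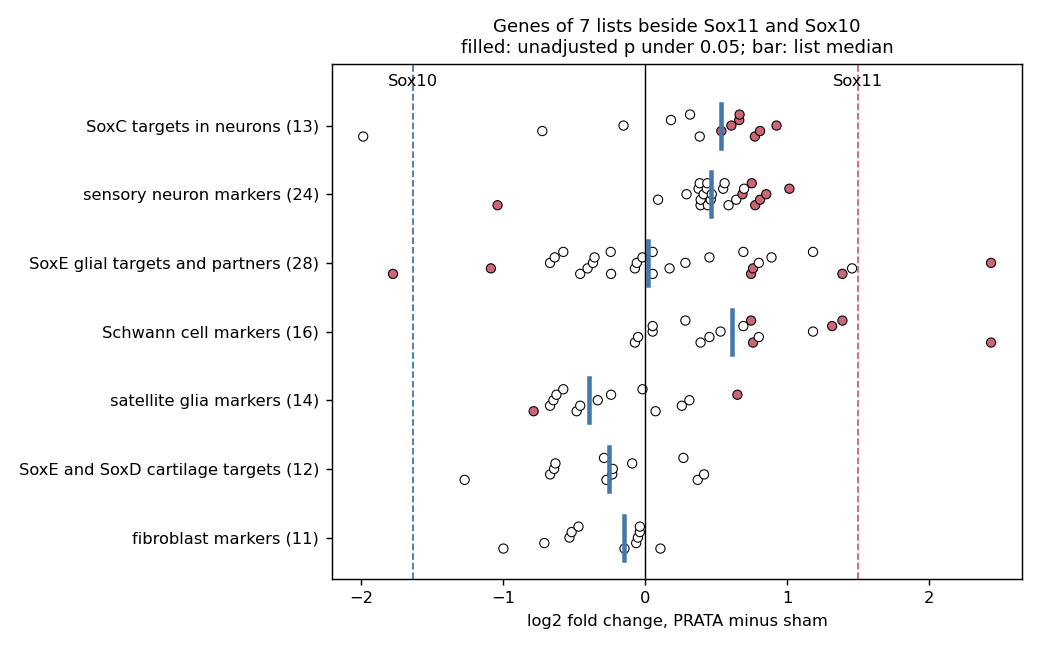
Log2 fold change (PRATA minus sham) of each gene tested in 7 lists (rows, number tested in brackets); filled points have an unadjusted edgeR p under 0.05, thick bars are list medians, and dashed lines mark Sox10 (-1.63) and Sox11 (1.5). Schwann cell markers lie mostly right of 0 (median 0.61) and satellite glia markers mostly left (median -0.40).

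Markers of the other cell types passed the unadjusted threshold in 1 gene, Vwf, with all 6 samples. Of all genes tested, 8.19% were higher and 10.1% lower at this threshold. Fibroblast markers (11 tested) had 0 genes at an unadjusted p under 0.05, a median of -0.15 and summed levels of 657 to 2705 CPM after PRATA and 1250 to 2613 CPM after sham, led by Col1a1. Without PRATA replicate 3, 4 of them were lower, and without sham replicate 3, 2. In these fits 2000 of 15323 and 1471 of 15758 genes passed in either direction. Pericyte and smooth muscle markers (10 tested) had 0 genes and a median of 0.21, and macrophage markers (11 tested) had 0 genes and a median of 0.46, at summed levels of 31.1 to 105.8 and 38.4 to 89.5 CPM. Without sham replicate 1, 3 pericyte and 3 macrophage markers were higher, and in the 4 samples 4 and 3. Over all genes, 2364 of 15360 passed in either direction without sham replicate 1 and 1907 of 14808 in the 4 samples. The pericyte median was -0.32 without PRATA replicate 2, -0.0042 without sham replicate 3 and 0.83 in the 4 samples. The macrophage median was 0.04 without PRATA replicate 3, 0.07 without sham replicate 3 and 0.21 without sham replicate 2. Endothelial markers had 1 gene higher (Vwf) and a median of 0.32, with 6 genes higher without sham replicate 2 and 0 without PRATA replicate 3, sham replicate 1 or sham replicate 3. Of all genes, 4254 of 15438 passed in either direction without sham replicate 2. Dividing cell markers (5 tested) had 0 genes and a median of 0.07. In each of these lists DESeq2 and limma voom called 0 genes at an adjusted p under 0.05.

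The variation between samples of a group did not enter the choice of the family. When each sample was expressed as its deviation from its group mean in log2 CPM, Sox2, Sox5 and Sox6 deviated almost together. Pearson r was 0.98 for Sox2 and Sox6, 0.98 for Sox2 and Sox5 and 0.96 for Sox5 and Sox6 (Spearman rho 1.0, 0.94 and 0.94, 6 samples). Such values are given as a description, since all genes of a sample share its library and depth. Sox10 followed Sox6 (0.91), the SoxC gene Sox12 (0.89) and Sox2 (0.86), while Sox9 went against Sox11 (-0.70) and Sox12 (-0.57). Of the 36 pairs, 29 had a positive r, with a median of 0.60. Pairs of other genes were not computed, so nothing about the family is read from this count. PRATA replicate 2 was the highest and PRATA replicate 3 the lowest of its group for Sox2, Sox5, Sox6 and Sox10, at deviations of 0.54 and -0.53 for Sox10 and 1.07 and -1.41 for Sox5.
In the same deviations, Sox10 went with the mean of the satellite glia markers (r = 0.89, rho = 0.94) and against that of the sensory neuron markers (r = -0.86, rho = -0.94). With the Schwann cell markers its r was 0.34. This course was not particular to Sox10, since Sox2 (r = 0.92), Sox6 (0.91) and Sox13 (0.93) also went with the satellite glia markers. Sox11 went with the Schwann cell markers (r = 0.86, rho = 0.83) and had r = -0.34 with the sensory neuron markers. Sox12 had r = 0.70 with the satellite glia markers and r = -0.58 with the sensory neuron markers. Sox9 went with the fibroblast markers (r = 0.85, rho = 0.77) and not with the satellite glia markers (r = -0.06, rho = 0.14). Sox13 showed the strongest inverse course to the sensory neuron markers, with r = -0.97.

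**Figure D4:**
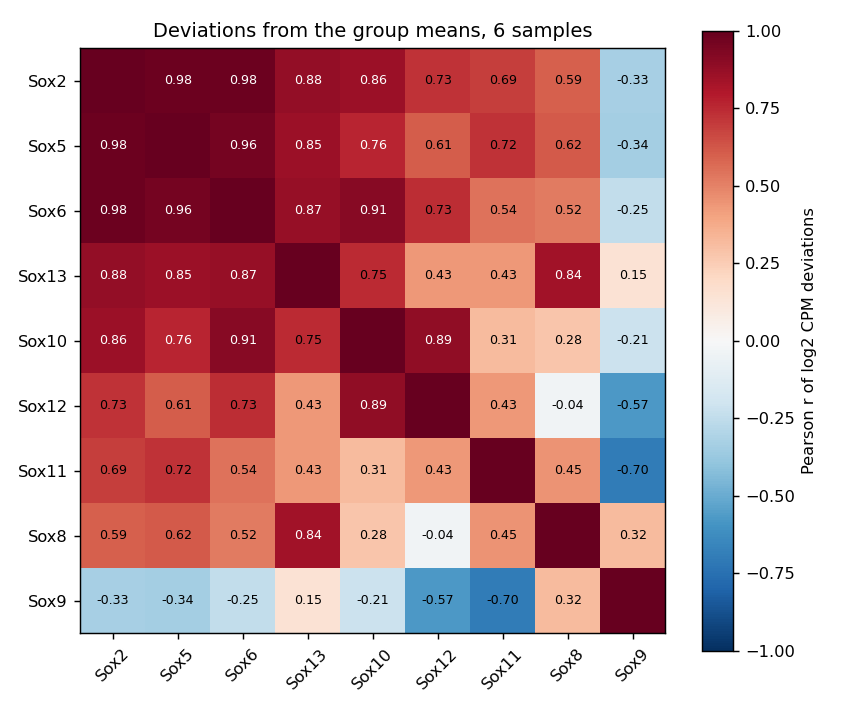
Pearson r between each pair of the 9 Sox genes (rows and columns) over the deviations of 6 samples from their group means in log2 CPM, from blue (-1) to red (1). Sox2, Sox5, Sox6, Sox13 and Sox10 form a red block with r from 0.75 to 0.98, and Sox9 is blue against Sox11 at -0.70.

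Over all 6 samples, the genes closest in pattern to Sox11 among 8571 protein-coding genes with a mean of at least 10 CPM were Asl (Pearson r = 0.992, Spearman rho = 0.943), Ralgps1 (r = 0.990, rho = 1.0) and Itpkb (r = 0.988, rho = 0.943). Asl, which encodes argininosuccinate lyase of the urea cycle, was at 42.9, 43.3 and 36.9 CPM after PRATA and 27.7, 27.5 and 27.1 CPM after sham. Closest to Sox10 were Pdpn (r = 0.995), Uap1 (r = 0.995) and Clic4 (r = 0.995), each with a rho of 1.0. Pdpn, which encodes the membrane glycoprotein podoplanin, was at 169.4, 235.4 and 143.0 CPM after PRATA and 467.4, 276.1 and 630.7 CPM after sham, so it shared with Sox10 the order of all 6 samples. Without the 2 samples farthest from the median of the Sox gene, r remained between 0.972 and 1.0 for these 6 genes. The correlation includes the difference between the groups, and the highest values among so many genes over 6 samples are high by selection.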

How the data were processed

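RNA of L1-L2 DRG neurons was measured in 3 PRATA and 3 sham samples, each sequenced as its own library. The deposited values are raw counts of reads per gene made by the authors, without normalization. The methods name HISAT2, StringTie and Cuffdiff, whereas the submitters' processing notes list STAR 2.7.3a, RSEM and DESeq2, so the tool behind the counts is uncertain. The build, the strand setting and the treatment of reads with several positions are not given in the sources used here. All sample columns were used.

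Counts were filtered by filterByExpr (minimum count 10, minimum total 15), scaled by TMM (factors 0.953 to 1.10) and fitted with edgeR 4.0.16 in R 4.3.3 by the quasi-likelihood method, without covariates. Tests were two-sided, with Benjamini-Hochberg adjustment over 14919 genes. The members, gene lists and alternatives were chosen with earlier results of these data known. The lists came from general knowledge, and unmatched names were left out. Genes were named as follows: all Sox genes of the table, up to 6 genes per list with the smallest unadjusted p under 0.05, up to 2 abundant genes per cell type list, and for Sox11 and Sox10 the 3 tested protein-coding genes with a mean of at least 10 CPM and the highest Pearson r, leaving out names starting with AABR, LOC, RGD or AC. Other genes named (Dcx, Neurod1, Marcksl1, Sprr1a, Mbp, Egr2, Lgals3bp, Bcan, Vwf, Cnmd and Col9a3) were chosen after their values were seen.

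The alternatives were scaling by DESeq2's size factors or by library size only, testing without a filter or with at least 10 counts in every sample, DESeq2 1.42.0, limma 3.58.1 voom with sample quality weights, the replicate number as a block, each sample left out, and the 4 samples without PRATA replicate 3 and sham replicate 1. The fit was tested on simulated data. Limits at 3 counts cover counting error only. Each sample is taken as a separate rat. The p-values set the difference between groups against the spread between these samples, which is estimated partly from other genes. Plots were made in matplotlib 3.10.9 (Python 3.11.15).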

Additional observations from a re-analysis of the deposited data

How the results depend on the processing

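Over 14 alternatives, the log2 fold change stayed between 1.33 and 1.65 for Sox11, between 0.77 and 1.06 for Sox12 and between -1.95 and -1.34 for Sox10, and the lowest and highest were also those of leaving out each sample for these 3 genes. Sox5 ranged from 0.40 to 2.0 and Sox9 from -1.33 to -0.40. The 4-sample fit reversed Sox2 (0.23) and Sox13 (0.52), and leaving out each sample gave ranges of -0.0444 to 0.59 for Sox6, -0.19 to 0.53 for Sox8 and -0.57 to 0.31 for Sox13. The cause was not tested. Sox7 kept its direction (-1.41 to -0.80) but not its unadjusted p under 0.05 in 4 alternatives. The list medians of SoxC targets (0.43 to 0.71), injury factors (0.38 to 0.70), sensory neuron (0.31 to 0.66) and Schwann cell markers (0.32 to 0.91) kept their sign.

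The SoxE median, near 0, was -0.013 without a filter, -0.0448 with at least 10 counts in every sample, -0.11 with voom and 0.50 in the 4 samples, and -0.37 to 0.34 with each sample left out (-0.37 without PRATA replicate 2). Of the 3 other Sox genes tested, 2 were higher at an unadjusted p under 0.05 without sham replicate 2 and with voom. Their median was -0.0874 without a filter (6 genes) and -0.0691 with at least 10 counts (2 genes), which changes the genes tested, and 0.64 to 1.46 with each sample left out. The cartilage median was 0.24 in the 4 samples and -0.68 to 0.0937 with each sample left out. The 4-sample medians were 0.115 for satellite glia and -0.0066 for dividing cell markers, and the latter was -0.0057 with at least 10 counts in every sample. With each sample left out, medians ranged from -0.84 to 0.0535 for fibroblast, from -0.90 to -0.0487 for satellite glia, from 0.04 to 0.61 for macrophage, from -0.10 to 1.07 for endothelial and from -0.32 to 0.52 for pericyte markers. At an unadjusted p under 0.05, the count of higher genes ranged over the alternatives from 4 to 9 for the SoxC list (7 in the report), 2 to 8 for the SoxE list (4), 3 to 9 for injury factors (5), 3 to 19 for sensory neuron markers (6) and 2 to 8 for Schwann cell markers (5), and the count of lower genes from 2 to 5 for the SoxE list (2), 0 to 6 for satellite glia markers (1) and 0 to 4 for fibroblast markers (0). Over all genes tested, the count in either direction ranged from 1406 without PRATA replicate 1 to 4606 with voom (2734 in the report).

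A replicate block gave log2 fold changes of 1.47 for Sox11, -1.62 for Sox10 and 0.89 for Sox12. Under it the SoxE median was -0.0439, and 1528 instead of 2734 genes had an unadjusted p under 0.05. The deviations of same-numbered samples correlated across 14919 genes with r of -0.35, -0.05 and -0.35, so same-numbered samples did not vary together. With 3 samples per group, this does not settle whether samples were handled in numbered pairs. Depth limited Sox14, Sox15, Sox17 and Sox30 most.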
